A study of Mus musculus with 12 samples.

Results

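Folding myosin and building, anchoring and turning over the sarcomere depend on a small set of chaperones, scaffold proteins and ubiquitin ligases, and 10 of their genes were followed here out of 37287 in the deposited tables. They were taken by symbol: Unc45a, Unc45b, Smyd1, Klhl40, Klhl41, Asb2, Xirp1, Nrap, Trim63 and Fbxo32, and all 10 were found. Poly(A) RNA had been sequenced from mouse embryonic fibroblasts called M&M MEFs, labelled MyoD-/-; Myf5-/-, and every group, controls included, carried this genotype and received the same medium. Cells received a lentivirus with polybrene, went into differentiation medium after 24 h and were harvested 20 h later. The groups were MyoD virus (1 library at the 2x dose and 1 at 1x), Myf5 virus (likewise 2x and 1x), no virus (1 library, labelled NV) and GFP virus (1 library at 1x and 4 at a multiplicity of infection, MOI, of 15, 30, 60 and 120). A second table held 1 library of a virus labelled Chimera and 1 of MyoD from a second batch, both at 1x. The makeup of Chimera, the promoters of the viruses, the number of embryos or clones behind the cells, and the relation of the 1x dose to the MOI scale are not given in the sources used here.

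Myosin heads need help to fold. UNC45 proteins are chaperones that bind myosin together with Hsp90. Unc45a is the general form and Unc45b the form of striated muscle. Smyd1 is a lysine methyltransferase of striated muscle that binds myosin and is needed for myofibril assembly in zebrafish. Klhl40 and Klhl41 are Kelch-repeat proteins that bind the Cul3 ligase and stabilise thin filament proteins such as nebulin, and human mutations in either cause nemaline myopathy. Asb2 is the substrate adaptor of a Cul5 ligase whose known substrates are filamins. Xirp1 (Xin) and Nrap are actin-binding scaffold proteins of early myofibrils and of the junctions where filaments attach. Trim63 (MuRF1) and Fbxo32 (atrogin-1) are the muscle ubiquitin ligases best known for their induction in atrophy.

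Library depth was 68.3 to 81.5 M counts (M, mega) for MyoD, Myf5, NV and 1x GFP, 17.9 to 22.4 M for the MOI series, and 25.1 and 23.7 M for Chimera and second-batch MyoD. Levels are given in CPM, the counts of a gene scaled to its library's total. Myod1 stood at 617 and 309 CPM in 2x and 1x MyoD and at 5.21 to 5.99 CPM in the Myf5, NV and GFP libraries. Myf5 RNA stood at 249 and 150 CPM in 2x and 1x Myf5 and at 11.9 to 24.4 CPM in the MyoD, NV and GFP libraries. Chimera had 22.1 CPM of Myod1 and 165 CPM of Myf5, against 324 and 14.7 CPM in second-batch MyoD. The muscle regulator Myog had 41 counts in 1x GFP and 18 in NV, and 0 in each MOI library. Counts outside the transduced groups do not check the knockout, because it is not known which part of each gene was deleted. All 10 fibroblast markers were at 1 CPM or more in every library, with a summed level of 12824 to 17680 CPM in MyoD, 17945 to 21326 in Myf5, 23835 in NV and 24738 to 27849 in GFP. The 10 skeletal muscle markers, Myod1 and Myf5 among them, summed to 1145 to 2837 CPM in MyoD, 199 to 388 in Myf5, 32.3 in NV and at most 28.6 in GFP. Myf5 RNA itself made up 150 CPM of the 199 in 1x Myf5 and 249 of the 388 in 2x Myf5. Myod1 made up 309 CPM of the sum in 1x MyoD and 617 in 2x MyoD. Most of the sum in NV and GFP was Myf5 and Myod1. Smooth muscle markers summed to 738 to 1216 CPM in MyoD, 558 to 582 in Myf5, 731 in NV and 270 to 590 in GFP, and their part in the results was not tested. Over these groups, cardiac markers summed to at most 9.07 CPM, macrophage markers to at most 14.9 and endothelial and epithelial markers to at most 2.53 each. In bulk RNA, more cells of a type and more RNA per cell cannot be told apart, and this holds for every value below. No label says that libraries came from separate cultures, so p-values measure only the spread between these libraries.

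Promoter sequences are shown for the chaperone and adaptor genes with the largest differences between MyoD and GFP, and for Unc45a as their counterpart outside muscle. RefSeq promoters (build GRCm38.p6, whereas the counts were made on mm9) were matched for 8 of the 10 genes, in 9 windows because Asb2 has 2 starts. Each line gives the 250 bases before the transcription start, 5′ to 3′, with the E-box CANNTG, the kind of site that MyoD and Myf5 bind, in capitals. Unc45b lies at chr11:82911003-82911252 on the plus strand, Smyd1 at chr6:71262282-71262531 on the minus strand, Klhl40 at chr9:121777357-121777606 on the plus strand, Klhl41 at chr2:69669870-69670119 on the plus strand, the first Asb2 start at chr12:103356002-103356251 on the minus strand, and Unc45a at chr7:80340220-80340469 on the minus strand.
Unc45b: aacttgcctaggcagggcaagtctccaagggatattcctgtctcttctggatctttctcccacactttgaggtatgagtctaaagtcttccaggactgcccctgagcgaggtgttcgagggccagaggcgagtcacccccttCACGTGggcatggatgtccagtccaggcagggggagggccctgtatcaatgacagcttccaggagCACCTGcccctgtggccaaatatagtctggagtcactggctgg
Smyd1: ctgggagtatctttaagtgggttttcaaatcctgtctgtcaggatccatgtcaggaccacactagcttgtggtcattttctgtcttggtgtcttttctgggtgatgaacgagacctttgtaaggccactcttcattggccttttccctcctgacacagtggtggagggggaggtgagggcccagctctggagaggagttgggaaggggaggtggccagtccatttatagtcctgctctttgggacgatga
Klhl40: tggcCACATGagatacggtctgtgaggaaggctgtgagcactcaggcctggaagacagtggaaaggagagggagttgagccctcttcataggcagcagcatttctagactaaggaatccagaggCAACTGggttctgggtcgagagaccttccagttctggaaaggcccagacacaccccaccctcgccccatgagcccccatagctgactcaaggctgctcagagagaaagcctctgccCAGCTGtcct
Klhl41: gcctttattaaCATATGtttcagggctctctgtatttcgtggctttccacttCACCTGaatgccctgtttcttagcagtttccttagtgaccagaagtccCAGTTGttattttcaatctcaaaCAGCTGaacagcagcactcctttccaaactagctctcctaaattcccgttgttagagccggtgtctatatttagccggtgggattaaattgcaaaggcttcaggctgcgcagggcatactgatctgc
Asb2: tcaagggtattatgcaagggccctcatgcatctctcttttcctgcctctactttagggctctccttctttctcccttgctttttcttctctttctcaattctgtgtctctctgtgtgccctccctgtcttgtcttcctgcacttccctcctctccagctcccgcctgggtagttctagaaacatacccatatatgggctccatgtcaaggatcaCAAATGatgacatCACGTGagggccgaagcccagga
Unc45a: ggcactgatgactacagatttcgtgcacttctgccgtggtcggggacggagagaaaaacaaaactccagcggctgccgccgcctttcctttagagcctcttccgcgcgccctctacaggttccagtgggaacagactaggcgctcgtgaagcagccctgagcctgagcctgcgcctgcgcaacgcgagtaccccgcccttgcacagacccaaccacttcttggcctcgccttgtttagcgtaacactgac
Over 300 bases, from 250 before to 50 after the start, CANNTG was searched, which reads the same on both strands. It occurred 4 times for Klhl40 (of which 1 lies after the start and is not printed), 4 times for Klhl41, 2 times for Unc45b and 2 times at the first Asb2 start, and not at all for Smyd1 and Unc45a. At least 1 was found in 7 of the 9 windows, and among 32851 promoters of the same length 72.3% hold at least 1 and 17.6% hold 3 or more. The narrower form CAGCTG, which lies within CANNTG, was found in 5 of the 9 windows, against 16.3% of all promoters. These windows belong to 5 of the 8 genes, namely Klhl40, Klhl41, Asb2 at its second start, Nrap and Trim63. A MEF2 motif was found in the Klhl41 window only (0.557% of promoters), and a CArG motif at the first Asb2 start only (1.63%), both strands searched. These are matches of letters, not binding sites.

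Among the myosin chaperones, the muscle paralogue Unc45b rose with both factors and the general Unc45a rose slightly with MyoD. Unc45b stood at 98.5 and 26.6 CPM in 2x and 1x MyoD and at 5.23 and 1.16 CPM in 2x and 1x Myf5, against 2 counts in NV, 16 counts in 1x GFP and 2, 0, 2 and 2 counts along the MOI series. All 4 factor libraries lay above all 6 others, and the share of all genes parted in this way was not counted. The log2 fold change was 8.92 ± 0.77 (SE) for MyoD against GFP (adjusted p = 1.2e-04) and 4.60 ± 0.87 for Myf5 against GFP (adjusted p = 0.021). Unc45a stood at 66.5 and 66.2 CPM in MyoD and 63.9 and 56.3 CPM in Myf5, against 50.8 CPM in NV and 57.3, 58.9, 52.0, 53.8 and 51.6 CPM in GFP. It was thus read well in every library, and its log2 fold change was 0.33 ± 0.08 for MyoD (adjusted p = 0.0106) and 0.16 ± 0.08 for Myf5 (adjusted p = 0.21). The Unc45a call in MyoD was lost against 1x GFP alone (0.22, adjusted p = 0.131) and without 2x MyoD (0.31, adjusted p = 0.0942).

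Per kilobase of exon, Unc45b reached 1.67 times the level of Unc45a in 2x MyoD and 0.453 times in 1x MyoD. In 2x and 1x Myf5 it was at 0.0921 and 0.0231 times the Unc45a level, and in 1x GFP at 0.00386 times. The muscle chaperone therefore passed the general form in level only at the higher MyoD dose among the first 10 libraries, and again in second-batch MyoD, where the ratio was 1.79. Unc45b overlaps the antisense genes Unc45bos and Slfn5os. Unc45bos had 795 and 236 counts in 2x and 1x MyoD and 45 and 1 in 2x and 1x Myf5, and none in NV or any GFP library, which is 10.5% and 11.0% of the Unc45b counts in MyoD. Unc45b shares 255 exon bases with Unc45bos and 151 with Slfn5os, out of 4.493 kb of exon. Whether counting used strand is not given, so reads in these shared stretches cannot be told apart.

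Smyd1 stood at 58.9 and 23.2 CPM in 2x and 1x MyoD and 2.45 and 0.937 CPM in 2x and 1x Myf5, against 0.0963 CPM in NV and 0.331, 0.101, 0.112, 0.134 and 0.249 CPM in GFP. No GFP or NV library reached the lowest Myf5 value, and the share of all genes parted in this way was not counted. Its log2 fold change was 7.53 ± 0.52 for MyoD (adjusted p = 4.1e-05) and 2.91 ± 0.58 for Myf5 (adjusted p = 0.0254). Of these genes it had the largest log2 difference of MyoD against Myf5, at 4.62 ± 0.58 (adjusted p = 0.0212). Smyd1 passed the filter for testing, 1 CPM in at least 2 libraries, only through the MyoD libraries, so this difference was partly built in.

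**Figure D1:**
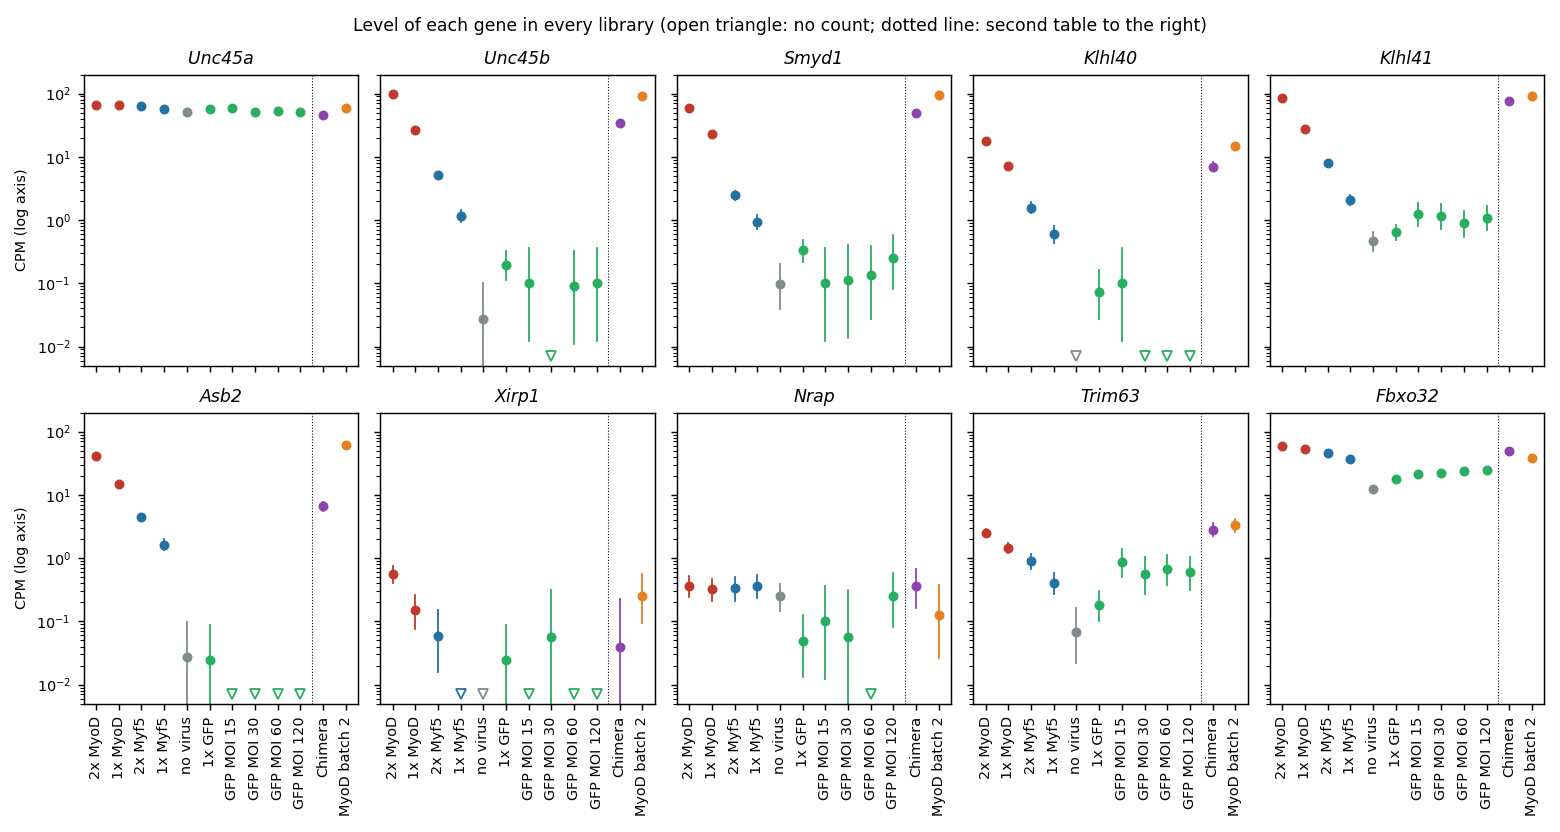
Level of each of the 10 genes in each of the 12 libraries, in CPM on a log axis; points are libraries, bars are exact 95% counting intervals, open triangles mark libraries with no count, and the dotted line parts the second table. Unc45b, Smyd1, Klhl40, Klhl41 and Asb2 are highest in MyoD, intermediate in Myf5 and lowest in GFP and NV, near 0 there except for Klhl41 (0.468 to 1.27 CPM), while Unc45a stays between 45.6 and 66.5 CPM throughout.

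Both Kelch genes rose with either factor. Their Myf5 calls, like those of Unc45b and Smyd1, were lost in some of the other fits described below. Klhl41 stood at 86.6 and 27.6 CPM in 2x and 1x MyoD and 7.85 and 2.08 CPM in 2x and 1x Myf5, against 0.468 CPM in NV and 0.638, 1.27, 1.18, 0.894 and 1.10 CPM in GFP. It was measurable in every library, and its 2 groups of factor libraries lay above all controls. The share of all genes parted in this way was not counted. The log2 fold change was 5.97 ± 0.56 for MyoD (adjusted p = 1.5e-04) and 2.42 ± 0.58 for Myf5 (adjusted p = 0.045). Klhl40 stood at 17.7 and 7.07 CPM in MyoD and 1.58 and 0.600 CPM in Myf5, against 0 counts in NV, 6 counts in 1x GFP and 2, 0, 0 and 0 counts along the MOI series. Its log2 fold change was 7.99 ± 0.65 for MyoD (adjusted p = 9.1e-05) and 4.46 ± 0.76 for Myf5 (adjusted p = 0.014). Klhl40 passed the filter only through the MyoD libraries, so its difference in MyoD was partly built in. Zero counts in NV allow up to 0.0507 CPM by the exact 95% counting interval, or 0.0413 CPM at a floor of 3 counts. Per kilobase, Klhl41 was the more abundant of the pair, at 4.84 and 3.86 times Klhl40 in 2x and 1x MyoD and 4.93 and 3.43 times in 2x and 1x Myf5. The Klhl41 counts of the first table were not whole as deposited, and how its reads were divided is not given.

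Asb2 was nearly silent without a factor and rose with either. It stood at 40.9 and 14.8 CPM in 2x and 1x MyoD and 4.47 and 1.64 CPM in 2x and 1x Myf5, against 2 counts in NV, 2 counts in 1x GFP and 0 counts in each of the MOI libraries. From those 2 counts over 5 GFP libraries, the summed Asb2 level was 247 times as high in Myf5 as in GFP, with an exact 95% counting interval of 67.9 to 2045. The intervals here cover counting error only. The fitted log2 fold change was 10.94 ± 0.74 for MyoD (adjusted p = 3.8e-05) and 7.73 ± 0.86 for Myf5 (adjusted p = 0.0023). Its Myf5 call was also made without 2x Myf5 (6.82, adjusted p = 0.019), which was so for no other member.

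The scaffold genes Xirp1 and Nrap stayed at trace level. Xirp1 had 43 and 12 counts in 2x and 1x MyoD and 4 and 0 counts in 2x and 1x Myf5, against 0 in NV and 2, 0, 1, 0 and 0 in GFP. Its highest level was 0.560 CPM, in 2x MyoD. Nrap had 28 and 26 counts in MyoD and 23 and 25 in Myf5, against 18 in NV and 4, 2, 1, 0 and 5 in GFP, so that the virus-free library lay near the factor libraries. In CPM, Nrap was at 0.365 and 0.323 in MyoD, 0.336 and 0.366 in Myf5 and 0.248 in NV, and at 0 to 0.249 in GFP. Both fell below the filter of 1 CPM in at least 2 libraries and were left out of the counts of calls. In a fit with no filter, both were called higher in MyoD than in GFP, Xirp1 at 4.18 ± 0.97 (adjusted p = 0.00947) and Nrap at 2.13 ± 0.62 (adjusted p = 0.0277), and neither in Myf5 (0.66, adjusted p = 0.841 for Xirp1, and 2.14, adjusted p = 0.0892 for Nrap).

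Of the atrophy ligases, Fbxo32 rose with both factors and Trim63 with MyoD. Fbxo32 stood at 59.0 and 52.4 CPM in 2x and 1x MyoD and 46.2 and 37.0 CPM in 2x and 1x Myf5, against 12.2 CPM in NV and 17.8, 21.7, 21.8, 23.6 and 24.8 CPM in GFP. Among these 10 libraries the groups did not overlap: MyoD was highest, then Myf5, then GFP (22.0 ± 2.65 CPM, SD, n = 5), with NV lowest. The share of all genes parted in this way was not counted. Second-batch MyoD, in the other table, stood at 38.6 CPM, between the 2 Myf5 values. Its log2 fold change was 1.40 ± 0.12 for MyoD (adjusted p = 1.2e-04) and 0.96 ± 0.12 for Myf5 (adjusted p = 0.0045). Trim63 stood at 2.51 and 1.45 CPM in MyoD and 0.891 and 0.410 CPM in Myf5, against 0.0688 CPM in NV and 0.184, 0.861, 0.560, 0.670 and 0.598 CPM in GFP. Among the same 10 libraries MyoD lay above all others, whereas Myf5 overlapped GFP. The share of all genes with MyoD so placed was not counted either. For MyoD the log2 fold change was 1.97 ± 0.50 (adjusted p = 0.0126), and for Myf5 it was 0.34 ± 0.54 (adjusted p = 0.70). Trim63 passed the filter only through the MyoD libraries, so its difference in MyoD was partly built in. With the dose label as a block, the Trim63 call in MyoD was lost (1.44, adjusted p = 0.0703).

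Within GFP, Trim63 was lower at 1x than in each MOI library, and the 1x library also differed from them in depth and in fibroblast and smooth muscle marker sums. Against 1x GFP alone, the Trim63 log2 fold change was 3.42 for MyoD (adjusted p = 0.00627) and 1.80 for Myf5 (adjusted p = 0.195). Fbxo32 shares its locus with Gm15943, whose counts were 10.1% of those of Fbxo32 in each MyoD library, 8.21% and 9.06% in 2x and 1x Myf5, 8.22% in NV and 2.81% to 7.63% in GFP. The 2 genes share 186 exon bases, out of 6.976 kb of Fbxo32 exon, and reads there cannot be told apart without strand.

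**Figure D2:**
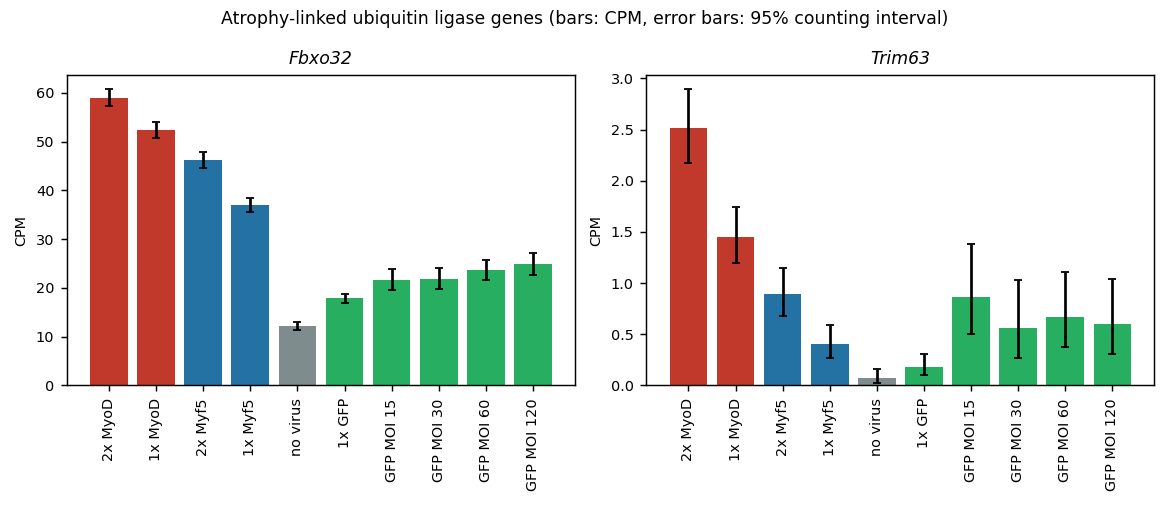
Fbxo32 and Trim63 by library in CPM, 1 bar per library of the first table, with exact 95% counting intervals as error bars. Fbxo32 separates MyoD, Myf5, GFP and NV without overlap, while for Trim63 1x Myf5 (0.410 CPM) lies within the GFP range of 0.184 to 0.861 CPM and 2x Myf5 (0.891 CPM) just above it.

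Counted together, 8 genes were tested and 8 were higher with MyoD than with GFP, where 21.4% of all 13825 genes tested passed in that direction. Smyd1, Klhl40 and Trim63 passed the filter only through the MyoD libraries, so their differences were partly built in and the count is given as a description. In Myf5 against GFP, 6 of the 8 were higher (3.81% of all genes tested), the exceptions being Trim63 and Unc45a. Unc45b, Asb2, Smyd1 and Klhl40 reached 1 CPM in no GFP or NV library and passed the filter only through MyoD and Myf5 libraries. This count too is thus partly built in and is given as a description. Against 1x GFP alone Fbxo32 was the only member called in Myf5 (1.21, adjusted p = 0.0125). Leaving out 2x Myf5 left only Asb2, and leaving out the GFP library at MOI 15, 30, 60 or 120 left 3 members each time.

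MyoD exceeded Myf5 directly in 5 of 8 genes, where 4.21% of all genes tested were higher in MyoD. Smyd1 and Klhl40, both among the 5, passed the filter only through the MyoD libraries, so this count is also a description. Beside Smyd1, the log2 differences were 4.32 ± 0.77 for Unc45b (adjusted p = 0.0256), 3.55 ± 0.67 for Klhl41 (adjusted p = 0.0272), 3.53 ± 0.61 for Klhl40 (adjusted p = 0.0246) and 3.21 ± 0.56 for Asb2 (adjusted p = 0.0246). Trim63 (1.63 ± 0.58, adjusted p = 0.133), Fbxo32 (0.44 ± 0.15, adjusted p = 0.12) and Unc45a (0.16 ± 0.10, adjusted p = 0.32) did not pass. At matched dose, the MyoD to Myf5 ratio of Smyd1 was 24.0 at 2x (95% counting interval 20.6 to 28.2) and 24.7 at 1x (19.3 to 32.2). For Unc45b it was 18.8 at 2x (16.9 to 21.0) and 23.0 at 1x (18.4 to 29.2). For Klhl40 it was 11.2 at 2x and 11.8 at 1x, and for Fbxo32 1.28 at 2x and 1.42 at 1x. The ratio was 11.0 at 2x and 13.3 at 1x for Klhl41, 9.15 and 8.998 for Asb2, and 2.82 and 3.54 for Trim63. For Unc45a it was 1.04 at 2x (0.999 to 1.08) and 1.18 at 1x (1.13 to 1.23). Nrap stood at 1.09 at 2x and 0.882 at 1x, and Xirp1 at 9.59 at 2x, with 0 counts in 1x Myf5. The intervals at the 2 doses did not overlap for Unc45a and for Fbxo32 (1.22 to 1.34 at 2x and 1.35 to 1.49 at 1x). They overlapped for Smyd1, Unc45b, Klhl40, Klhl41, Asb2, Trim63, Nrap and Xirp1. No member was called without 2x MyoD, without either Myf5 library or without the GFP library at MOI 30 or 60, only Smyd1 without the one at MOI 15, and 7 without 1x GFP.

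**Figure D3:**
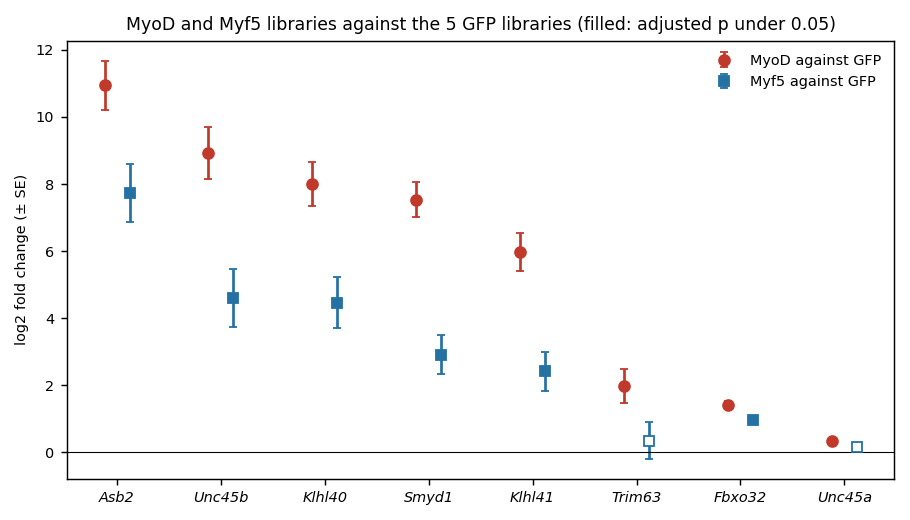
Log2 fold changes with SE for the 8 tested genes, MyoD against GFP and Myf5 against GFP, where filled points have an adjusted p under 0.05. Asb2, Unc45b, Klhl40, Smyd1 and Klhl41 lie above Trim63, Fbxo32 and Unc45a in both comparisons.

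Doubling the dose label was tested as a term common to MyoD and Myf5. The edgeR test called 0 of the 8 genes, where it called 0.0217% of all genes tested, while 5 had an unadjusted p under 0.05 and DESeq2 called 5. The fitted log2 differences of 2x over 1x were 2.04 ± 0.26 for Unc45b (adjusted p = 0.0748), 1.80 ± 0.22 for Klhl41 (adjusted p = 0.0579), 1.48 ± 0.20 for Asb2 (adjusted p = 0.077), 1.39 ± 0.26 for Smyd1 (adjusted p = 0.126) and 1.38 ± 0.37 for Klhl40 (adjusted p = 0.228). Trim63 was at 0.96 ± 0.51 (adjusted p = 0.568), Fbxo32 at 0.27 ± 0.13 (adjusted p = 0.497) and Unc45a at 0.12 ± 0.09 (adjusted p = 0.742). Without 1x GFP, 6 members were called. Myod1 itself stood 2.00 times as high in 2x as in 1x MyoD, and Myf5 1.67 times as high in 2x as in 1x Myf5.

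Each factor's own ratio has no replicate and no test. In MyoD, 2x over 1x was 3.70 for Unc45b, 3.14 for Klhl41, 2.77 for Asb2, 2.54 for Smyd1 and 2.50 for Klhl40. Xirp1, with 43 against 12 counts, had a ratio of 3.76 (95% counting interval 1.95 to 7.83). These 6 of 10 genes exceeded 2-fold, where 2.3% of genes with at least 50 counts over both libraries did. Xirp1 passed that floor only with its 2x counts, so its place was partly built in. In Myf5 the ratios were 4.52 for Unc45b, 3.78 for Klhl41, 2.72 for Asb2, 2.63 for Klhl40, 2.62 for Smyd1 and 2.17 for Trim63. That is 6 of 8 genes, where 1.51% of genes with at least 50 counts over both libraries exceeded 2-fold. Klhl40 (41 counts at 1x) and Trim63 (28 counts at 1x) passed that floor only with their 2x counts. Both counts of genes past 2-fold are thus partly built in and are given as a description. The Trim63 ratio in MyoD was 1.73. Fbxo32 stood at 1.13 in MyoD and 1.25 in Myf5, Unc45a at 1.00 in MyoD and 1.14 in Myf5, and Nrap at 1.13 in MyoD and 0.917 in Myf5. Xirp1 in Myf5 had 4 counts at 2x and 0 at 1x. Fibroblast markers summed lower and muscle markers higher in the 2x than in the 1x library of each factor. The muscle sums include the delivered factor's own gene, and the part of both sums in these ratios was not tested.

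**Figure D4:**
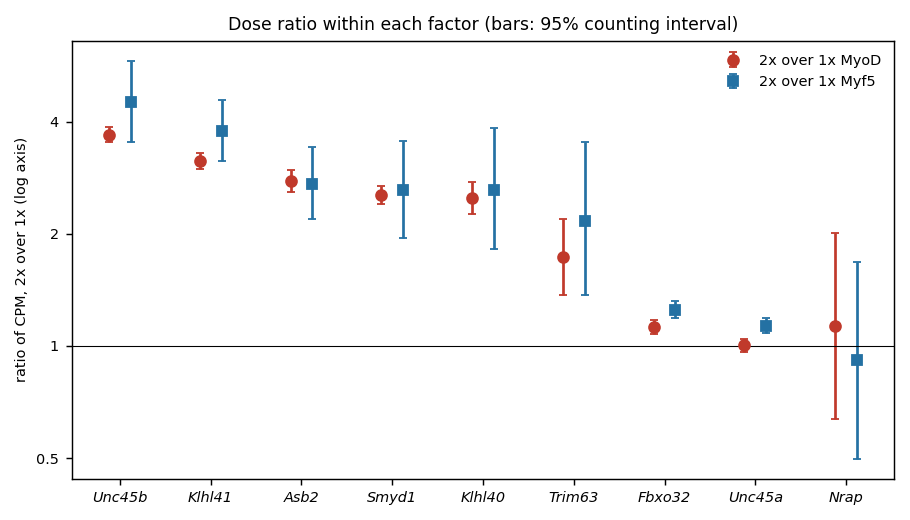
Ratio of CPM, 2x over 1x, for 9 genes within MyoD and within Myf5, on a log axis; bars are exact 95% counting intervals. Of those shown, Unc45b has the highest ratio in both factors (3.70 and 4.52) and Unc45a and Fbxo32 lie near 1.

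The virus itself was examined through NV and the MOI series. In NV against GFP, Fbxo32 was the 1 member of 8 called lower (2.52% of all genes tested were, and 5.83% were higher), with a log2 difference of -0.80 ± 0.18 (adjusted p = 0.030). The call was lost against 1x GFP alone (-0.55, adjusted p = 0.119) and when the GFP library at MOI 15, 30, 60 or 120 was left out (adjusted p of 0.0508 to 0.0667). Trim63 was at -2.84 ± 0.99 (adjusted p = 0.104), Unc45b at -2.13 ± 2.50 (adjusted p = 0.589), Smyd1 at -1.18 ± 1.15 (adjusted p = 0.51), Klhl41 at -0.97 ± 0.96 (adjusted p = 0.516) and Unc45a at -0.06 ± 0.11 (adjusted p = 0.708). Klhl40 and Asb2, with 0 and 2 counts in NV, were not called either, and the large errors leave room for sizeable differences in the genes near 0. Along the MOI series 3 members could be tested and edgeR called 0 (7.49% of all genes tested), with 1 at an unadjusted p under 0.05 and 0 by DESeq2. The slope per doubling of MOI was 0.07 ± 0.03 for Fbxo32 (adjusted p = 0.236), -0.05 ± 0.02 for Unc45a (adjusted p = 0.25) and -0.10 ± 0.14 for Klhl41 (adjusted p = 0.75).

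Chimera, set against MyoD of the second batch, gave a graded picture with 1 library each and no test. Asb2 stood at 6.62 CPM in Chimera, against 60.8 CPM in second-batch MyoD, a ratio of 0.109 (95% counting interval 0.0921 to 0.128). Unc45b stood at 34.7 CPM in Chimera, against 92.7 CPM in MyoD (ratio 0.374), and Klhl40 at 7.02 CPM, against 14.7 CPM (ratio 0.479). These 3 of 8 genes with at least 50 counts were lower by 2-fold or more, where 2.23% of genes were, and 0 were higher by as much (2.54% of genes). Smyd1 (48.8 CPM in Chimera, 93.5 CPM in MyoD, ratio 0.523) and Klhl41 (75.5 CPM in Chimera, 90.8 CPM in MyoD, ratio 0.832) were less far apart. The Kelch genes thus differed in their ratios, and per kilobase Klhl41 was 10.6 times Klhl40 in Chimera and 6.12 times in MyoD.

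Trim63 stood at 2.83 CPM in Chimera and 3.29 CPM in second-batch MyoD, with an interval of the ratio that includes 1 (0.614 to 1.20). Fbxo32 was higher, at 49.7 CPM in Chimera and 38.6 CPM in MyoD (ratio 1.29, 1.18 to 1.40), and Unc45a lower, at 45.6 CPM in Chimera and 58.3 CPM in MyoD (ratio 0.783). Nrap had 9 counts in Chimera and 3 in MyoD, and Xirp1 had 1 in Chimera and 6 in MyoD. The muscle markers, Myod1 and Myf5 among them, summed to 1073 CPM in Chimera and 2333 CPM in MyoD, a difference whose part in these ratios was not tested.

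**Figure D5:**
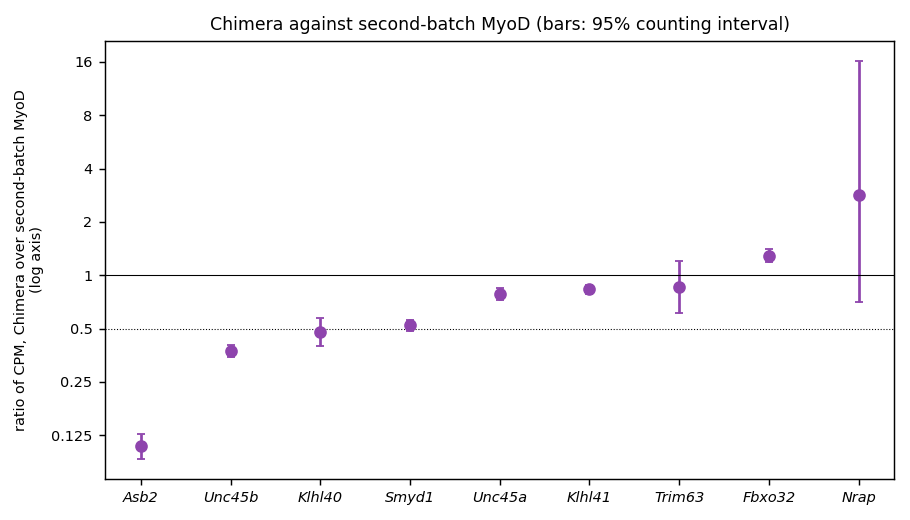
Ratio of CPM, Chimera over second-batch MyoD, for 9 genes on a log axis; bars are exact 95% counting intervals. Asb2 lies lowest at 0.109, Fbxo32 above 1 at 1.29, and the interval of Nrap spans 1.

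Genes that work with these proteins were counted by list, and each count for MyoD stands against 21.4% of all genes tested that rose and 20.9% that fell. Of 12 HSP90 partners of the UNC45 system, 6 rose with MyoD over GFP and 0 fell, with a median log2 fold change of 0.22, against -0.03 over all genes tested. Hsp90ab1, the constitutive HSP90, had 4666 and 3864 CPM in MyoD and 2034 to 2734 CPM in GFP (0.93 ± 0.13, adjusted p = 8.3e-04). The co-chaperone Stip1 was at 0.45 ± 0.11 (adjusted p = 0.0097). Of the 8 subunits of the chaperonin TRiC, which folds actin, 7 were higher and 0 lower in MyoD (median 0.35), among them Cct3 (0.50 ± 0.08) and Cct6a (0.44 ± 0.08). The virus-free NV library had similar medians against GFP, at 0.37 for TRiC and 0.29 for the HSP90 partners. In Myf5, neither Hsp90ab1 (0.40 ± 0.13, adjusted p = 0.0919) nor Cct3 (0.24 ± 0.08, adjusted p = 0.102) passed. Among the small heat shock and BAG3 genes, 9 passed the filter, of which 6 rose and 1 fell with MyoD. Cryab, a chaperone of desmin, stood at 1.82 ± 0.22, Hspb8 at 1.02 ± 0.19, and Dnajb4 at -0.24 ± 0.07.

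Among ligase genes, 5 of 21 other muscle adaptors passed the filter, and 4 of them were higher in MyoD and 0 lower. Fbxl22, an F-box protein of the sarcomere, rose by 2.24 ± 0.32 and Fbxo30 by 0.37 ± 0.07 on the log2 scale. Of 14 cullin core genes 7 were higher and 1 lower (median 0.18). Cul4a stood at 0.81 ± 0.11 and Obsl1, a cytoskeletal partner of Cul7, at 0.97 ± 0.19, while Cul7 stood at -0.19 ± 0.05. Cul3, the partner of both Kelch proteins, was at -0.01 ± 0.05 and Cul5, the partner of Asb2, at 0.06 ± 0.06, neither passing the test. These cullins were named after their values were seen. Of 4 other TRIM genes tested, 2 were higher in MyoD and 0 lower, Trim54 and Trim55, the relatives of Trim63. Both were added outside the naming rule given below.

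Among partners and clients, 13 were tested, and 8 rose and 1 fell with MyoD (median 0.29). Myh3, the embryonic myosin heavy chain, stood at 177 and 31.4 CPM in 2x and 1x MyoD and at 4.44 and 1.01 CPM in Myf5, against 0.11 CPM in NV and 0 to 0.209 CPM in GFP. Des, desmin, stood at 54.6 and 17.9 CPM in MyoD, against 0.608 to 1.29 CPM in GFP (5.16 ± 0.45). The list of FoxO and atrophy genes, which leaves out Trim63 and Fbxo32, had 15 tested, with 4 up and 3 down in MyoD (median -0.02). Traf6 was at 0.45 ± 0.10 and Psmd11 at 0.43 ± 0.09, while the protease Ctsl was at -0.89 ± 0.07 and Foxo3, a transcription factor that activates both atrophy ligases in muscle, at -0.47 ± 0.09.

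By Pearson correlation of log2(CPM + 0.5) over the 10 libraries, the nearest genes to each member were found as a description, since libraries share groups and doses. Unc45b lay nearest to Ctrb1 (r = 0.999) and to Hrc (r = 0.998), a calcium-binding protein of the sarcoplasmic reticulum. Smyd1 lay nearest to Rbm24, an RNA-binding splicing factor of muscle, and to Pitx3 (both r = 0.997). Klhl40 lay nearest to Rbm24 (r = 0.999) and Unc45b (r = 0.998), and Klhl41 to Gm13807 (r = 0.999) and Iffo1 (r = 0.996). Asb2 lay nearest to Mymk (r = 0.998), the fusion protein myomaker, and to Actc1 (r = 0.997), cardiac actin. Outside this cluster, Trim63 lay nearest to Armcx3 (r = 0.991), Fbxo32 to Man2a2 (r = 0.992), and Unc45a to Hibch (r = 0.980).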

How the data were processed

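Poly(A) libraries had been prepared by oligo-dT selection, per the labels' protocols. Per the submitters' processing notes, CASAVA 1.8.2 and TopHat2 2.0.8 were used with mm9. The sources used here name neither the counting tool nor its annotation. In the first table, as the authors deposited it, values are expected counts, not all whole, and were rounded, and the second deposited table holds whole-number counts. The tables were not fitted together, since mitochondrial genes are at 0 in the one and take 4.05% and 4.18% of the libraries of the other.

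Symbols and exon lengths came from GENCODE vM21. In R 4.3.3, edgeR 4.0.16 fitted 10 libraries with TMM factors over 13825 genes that reached 1 CPM in 2 or more libraries. Its quasi-likelihood test was two-sided with Benjamini-Hochberg adjustment over all genes, and called an adjusted p under 0.05. NV, with 1 library, takes its spread from the other groups. Standard errors came from the F statistic. The MOI slope used 4 libraries and 13383 genes. Chimera was set against second-batch MyoD as a ratio of CPM, with an exact 95% binomial interval. A 2-fold count used genes with at least 50 counts over both libraries and a prior of 2 counts. DESeq2 1.42.0, RLE factors, no filter, 1x GFP alone, a dose-label block and leave-one-out fits were alternatives. The fit was tested on simulated data.

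The rule names all 10 genes in each comparison, with values where the filter let them be tested or counts allow a ratio. From each companion list the 2 largest rises and falls in MyoD with a mean of at least 5 CPM are named, and Trim54, Trim55, Cul3 and Cul5 were added. A gene that this rule names is not reported here. For likeness, the 2 genes with the highest correlation were taken. The genes and lists were chosen with earlier results of these data known.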

Additional observations from a re-analysis of the deposited data

Results flagged for a closer look

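Asb2 in the 1x GFP library stood apart from the other GFP libraries, at 0.0245 CPM, since its 2 counts there set the whole range of the group and the 4 MOI libraries had 0 counts. The 1x library is also the deepest of the 5, and at the depth of an MOI library 0 counts allow more than this level. Of all the members in groups of that size, this was the only library so far from the rest. Chance gives such a gap in about 1 in 20 groups of continuous values, and more often with counts as low as these, where any library with counts among others at 0 stands apart.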

How the results depend on the processing

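Of the members' log2 values under the alternatives, 477 kept direction and side of the threshold, 18 newly passed, 61 no longer passed and 3 reversed. The reversals were Trim63 in Myf5 against GFP, at 0.34 in the report and at -0.23 with the dose-label block, and, leaving out each library in turn, -0.34 (without 2x Myf5) to 0.78, with -0.02 without 1x GFP, none past the threshold.

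The labels share a dose but no replicate number, so the replicate block on the dose label is no pairing of cultures. With it, 3489 genes were called in MyoD against GFP (5856 without), 229 in Myf5 against GFP (843 without) and 1400 in MyoD against Myf5 (761 without). Trim63 (1.44, adjusted p = 0.0703) and Unc45a (0.27, adjusted p = 0.054) lost their call in MyoD.

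DESeq2 called 2143 genes in Myf5 against GFP, 1750 in MyoD against Myf5, 2512 in NV against GFP (1154 by edgeR) with 2 members, 290 for dose (3 by edgeR) with 5 members, and 486 along MOI (1002 by edgeR). With no filter, dose gave 16 genes and 3 members, and Xirp1 (4.18, adjusted p = 0.00947) and Nrap (2.13, adjusted p = 0.0277) were called in MyoD against GFP. Against 1x GFP alone, 163 genes and 1 member were called in Myf5, and 683 genes and 0 members in NV.

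Leaving out each library in turn gave 1833 to 8073 genes and 6 to 8 members in MyoD against GFP, 57 to 5063 and 1 to 6 in Myf5 against GFP, 2 to 2706 and 0 to 7 in MyoD against Myf5, 535 to 5142 and 0 to 2 in NV, 0 to 1018 and 0 to 6 for dose, and 338 to 1552 and 0 to 0 along MOI. The Chimera counts and ratios stayed within counting error with TMM factors or without mitochondrial genes. Other causes were not tested. At 17.9 to 22.4 M counts, the MOI libraries limit what can be said of members near 0 there.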

Other observations

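Without any virus, partner genes of the chaperones differed from GFP as well. Of 12 HSP90 partners, 4 were higher and 0 lower in NV (5.83% of all genes tested were higher), with a median log2 difference of 0.29, against -0.01 over all genes tested. Hsp90aa1, the inducible HSP90, stood at 885 CPM in NV and 553 to 627 CPM in GFP (0.61 ± 0.08, adjusted p = 0.0027), and Stip1 at 270 CPM in NV and 168 to 209 CPM in GFP (0.63 ± 0.14, adjusted p = 0.0267). Of 8 TRiC subunits, 3 were higher and 0 lower in NV. Of 15 FoxO and atrophy genes, 1 was higher and 5 lower in NV (2.52% of all genes tested were lower), among them Foxo3 (-0.57 ± 0.12, adjusted p = 0.0206) and Ctsl (-0.64 ± 0.09, adjusted p = 0.0039). Hsp90aa1 was named here after its values were seen. NV has 1 library.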
